A study of Mus musculus with 8 samples.

Results

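Granule and maturation genes of neutrophils were examined in RNA of the whole mouse inner ear. The members were 35 genes chosen by symbol as a list, and all 35 were found among the 47517 symbols of the count files. They fall into 5 genes of primary granules and precursors, 2 genes of the transition to later stages, 10 genes of secondary granules and their stage, 2 genes of tertiary granules, 12 genes of the mature cell and 4 genes that neutrophils share with other phagocytes. RNA came from 4 wild-type control libraries and 4 libraries of heterozygous littermates whose copy of the receptor TRα1, a thyroid hormone receptor encoded by Thra, carries a frameshift mutation. The animals were 14 days old and untreated, and the labels name no Cre or transgene. The labels do not give the strain, the number of animals or ears behind a library, or which libraries shared a litter, so p-values measure only the spread between these libraries, which may be technical. The tissue is labelled inner ear, while the title of the series names the cochlea.

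Neutrophils are short-lived phagocytes that develop in bone marrow and fill their granules in a fixed order. Promyelocytes make primary (azurophil) granule proteins such as myeloperoxidase and neutrophil elastase, myelocytes and metamyelocytes then make secondary (specific) granule proteins such as lactoferrin, and gelatinase granules and surface receptors for chemokines and formyl peptides come last. The factors PU.1 and C/EBPε drive much of this program, so the RNA of a granule gene marks the stage of the cell that holds it. Primary granule RNA belongs to dividing precursors, whereas S100a8, S100a9, Cxcr2 and Csf3r RNA is kept in mature cells.

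Each library held between 18930841 and 23064578 counts, and 21392 genes passed the filter on low counts. The 13 inner ear markers examined, among them Otof, Myo7a and Coch, were tested in these libraries and their sum lay between 3506 and 5475 CPM, the count relative to the normalized library size. Thra had 1960 to 2459 counts in wild-type and 2461 to 3120 in mutant libraries, which does not check the labels because a frameshift can leave the RNA in place. The Y-linked gene Eif2s3y had 520 to 545 counts in wild-type libraries 2 and 3 and mutant library 3 and at most 2 in the others. Xist was present in all 8, from 3622 counts in wild-type library 2 to 10682 in mutant library 2. Wild-type libraries 2 and 3 and mutant library 3 thus held both a Y-linked RNA and Xist, whereas mutant library 2 lacked Eif2s3y. The part of sex in the levels of the members was not tested. Across all genes the quasi-likelihood test of edgeR, with Benjamini-Hochberg adjustment and a threshold of 0.05, called 1 gene higher and 8 lower in the mutant.

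None of the 35 members was called different between the genotypes by that test. All 35 passed the filter, 0 were called higher beside 0.00467% of all genes, and 0 were called lower beside 0.0374%. The lowest adjusted p of edgeR among members was 0.923, for Stfa1, and 0 members had an unadjusted p under 0.05, beside 5.30% of all genes. Among the other tools, DESeq2 put Stfa1 and BC100530 and limma-voom put Stfa1, Stfa2 and BC100530 under an unadjusted p of 0.05, that is 2 and 3 of 35 members beside 6.44% and 6.03% of all genes, and neither called a member after adjustment. Wild-type and mutant levels overlapped for all 35 members, whereas 2.69% of all genes tested had no overlap. The estimate was negative (lower in the mutant) for 29 members and positive for 6, with a median log2 fold change of -0.26. Over all genes tested the median was -0.006, and 51.7% of estimates were negative. The direction of the median depended on a single library: without wild-type library 2 the median over members was 0.13, with 6 negative and 29 positive. Without mutant library 2 it was -0.84. With both libraries 2 left out, an alternative added after the data had been seen, it was -0.45, with 30 negative. Without any 1 of the other 6 libraries the median lay between -0.53 and -0.039. In bulk RNA such as this, fewer cells of a type and less RNA per cell cannot be told apart.

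**Figure D1:**
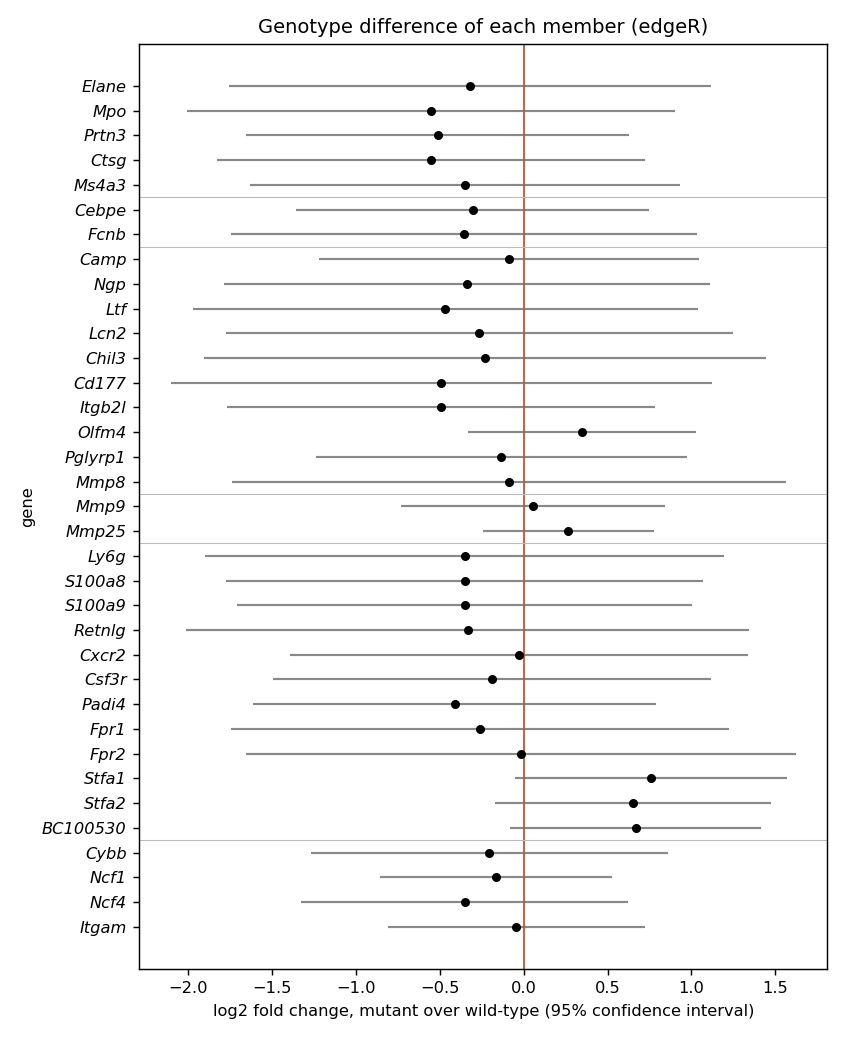
Log2 fold change of each member (mutant over wild-type, horizontal axis) from edgeR as points, with 95% confidence intervals as bars, in the order of the role groups. The interval of every member crosses 0, and the 3 stefin genes Stfa1, Stfa2 and BC100530 lie farthest to the right.

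The members varied widely between libraries. The highest of the 8 libraries, of either genotype, exceeded the lowest by 2.26-fold (Mmp25) to 9.70-fold (Ly6g), with a median of 4.85-fold. The median was 1.56-fold over the 20047 tested genes that had a count in every library. Within a genotype, the summed members differed 3.43-fold between wild-type libraries 2 and 3 and 2.54-fold between mutant libraries 2 and 3. These sums include the tertiary granule genes, which ran the other way. Library 2 over library 3 was 4.59, 4.89 and 0.515 for primary, secondary and tertiary granule genes in the wild-type, and 3.24, 3.46 and 0.912 in the mutant. The standard error of the log2 fold change was 0.22 to 0.72 for members, with a median of 0.56, beside a median of 0.16 for all genes tested. In 28 members wild-type library 2 and mutant library 2 were the highest pair of the 8. In 28 members wild-type library 3, mutant library 1 and mutant library 3 were the lowest 3. The order of the libraries thus crossed the genotypes, with the highest and the lowest libraries of the module found in each. Members took 0.138, 0.259, 0.0773 and 0.192% of the counts in wild-type libraries 1 to 4 and 0.0902, 0.243, 0.0968 and 0.141% in mutant libraries 1 to 4.

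**Figure D2:**
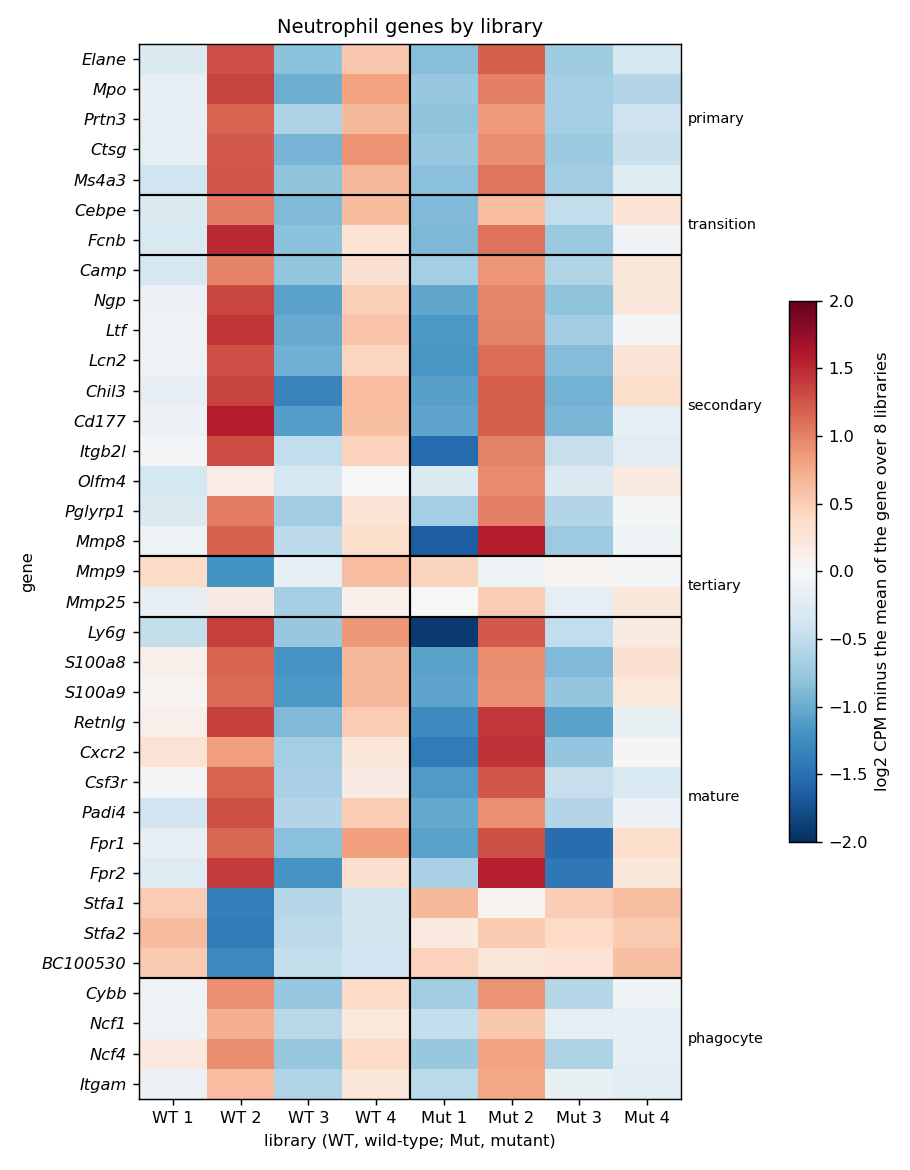
Log2 CPM of each member (rows, by role group) in each library (columns) minus the mean of that gene over the 8 libraries, red for higher and blue for lower. Wild-type library 2 and mutant library 2 are red in most rows, wild-type library 3, mutant library 1 and mutant library 3 are blue, and Mmp9, Stfa1, Stfa2 and BC100530 are blue in wild-type library 2.

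The promoter windows of the members were searched for the core motifs of these factors. RefSeq windows of 300 bases (250 before to 50 after a start site, build GRCm38.p6) were matched by symbol for 31 of the 35 members (not BC100530, Cebpe, Mmp9 and Ncf4), 32 windows in all because Ly6g has 2. The PU.1 core GAGGAA, on either strand, was in 23 of the 32 windows (71.9%) and in 28.3% of the 32851 windows of all genes. The C/EBP core TTGCNNAA, where N is any base, was in 10 of 32 (31.3%) and in 10.8% of all windows, and in no member window did a match of one overlap a match of the other. Both were in 18.8% of member windows and in 2.92% of all windows. All 5 primary granule genes held the PU.1 core, among them Elane at position -85 and Prtn3 at -95 from the start site. A match of letters is a description of the window and not a bound site. The windows of 1 primary granule gene (Elane, chr10:79886062-79886361, plus strand), 2 secondary granule genes (Ngp, chr9:110419558-110419857, plus strand, and Ltf, chr9:111019042-111019341, plus strand), 1 mature cell gene (S100a8, chr3:90668821-90669120, plus strand) and 1 gene that departed from the common order of libraries (Stfa1, chr16:36276898-36277197, plus strand) are printed 5′ to 3′ on the gene's strand, with matches of either core in capitals (TTCCTC is the PU.1 core on the opposite strand).
Elane: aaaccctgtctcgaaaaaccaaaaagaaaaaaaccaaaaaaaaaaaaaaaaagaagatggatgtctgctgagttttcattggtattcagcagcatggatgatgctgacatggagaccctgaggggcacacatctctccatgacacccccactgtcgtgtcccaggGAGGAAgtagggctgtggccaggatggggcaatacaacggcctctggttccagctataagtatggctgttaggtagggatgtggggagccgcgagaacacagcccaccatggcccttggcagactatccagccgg
Ngp: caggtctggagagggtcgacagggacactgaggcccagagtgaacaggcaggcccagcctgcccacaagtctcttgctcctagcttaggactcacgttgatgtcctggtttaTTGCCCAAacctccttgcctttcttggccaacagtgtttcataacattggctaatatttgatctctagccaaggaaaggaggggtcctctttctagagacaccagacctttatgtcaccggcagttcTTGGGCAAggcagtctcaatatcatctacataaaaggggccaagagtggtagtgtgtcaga
Ltf: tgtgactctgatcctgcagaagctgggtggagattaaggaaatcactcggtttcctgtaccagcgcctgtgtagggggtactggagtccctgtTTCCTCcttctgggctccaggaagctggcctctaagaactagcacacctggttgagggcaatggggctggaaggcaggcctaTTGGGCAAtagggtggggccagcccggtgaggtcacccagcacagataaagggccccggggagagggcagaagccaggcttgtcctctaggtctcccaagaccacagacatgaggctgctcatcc
S100a8: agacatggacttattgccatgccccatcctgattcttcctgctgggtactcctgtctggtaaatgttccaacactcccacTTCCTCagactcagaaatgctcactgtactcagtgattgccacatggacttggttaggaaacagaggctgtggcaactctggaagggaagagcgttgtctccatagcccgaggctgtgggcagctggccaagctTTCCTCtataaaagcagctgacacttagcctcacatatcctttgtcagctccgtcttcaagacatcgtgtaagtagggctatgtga
Stfa1: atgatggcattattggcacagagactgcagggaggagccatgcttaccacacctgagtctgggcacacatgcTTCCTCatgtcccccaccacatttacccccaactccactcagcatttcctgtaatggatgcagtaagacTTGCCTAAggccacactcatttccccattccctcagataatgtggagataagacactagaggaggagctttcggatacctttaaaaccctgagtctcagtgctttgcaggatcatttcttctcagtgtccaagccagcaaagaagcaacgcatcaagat
Elane and S100a8 held only the PU.1 core, Ngp only the C/EBP core, at 2 places, and Ltf and Stfa1 held both. Stfa1 thus carried the same pair of cores as Ltf, and a link between cores and the order of the libraries was not tested.

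The primary granule genes encode enzymes of the earliest granules. Elane (neutrophil elastase, chr10:79886247-79888215 of GRCm38) and Prtn3 (proteinase 3, chr10:79874476-79883174) are neighbouring serine protease genes on chromosome 10, Ctsg encodes the related protease cathepsin G, Mpo encodes the enzyme that makes hypochlorous acid, and Ms4a3 marks granulocyte and monocyte precursors. Mpo stood at 56.2, 161, 31.9 and 111 CPM in wild-type libraries 1 to 4 and 37.3, 126, 39.5 and 42.2 CPM in mutant libraries 1 to 4. Elane stood at 13.3, 39.5, 9.10 and 23.4 CPM in wild-type libraries 1 to 4 and 8.96, 37.0, 9.84 and 12.6 CPM in mutant libraries 1 to 4. The high library of each genotype was library 2, and wild-type library 4 was next, while the other 3 mutant libraries lay close together. Prtn3 stood at 12.4, 31.4, 9.10 and 21.9 CPM in the wild-type libraries and 7.99, 25.1, 8.82 and 10.5 CPM in the mutant libraries, with the same 3 libraries highest. Mpo averaged 89.8 ± 57.5 CPM over the wild-type and 61.3 ± 43.3 CPM over the mutant libraries (SD, n = 4 per genotype). Its log2 fold change was -0.55 (SE 0.62, 95% interval -2.01 to 0.90). The interval includes 0 and reaches further below it than above it. With a library left out the estimate of Mpo ran from -1.18, without mutant library 2, to -0.11, without wild-type library 2.

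Ctsg stood at 5.16, 13.8, 3.07 and 11.0 CPM in the wild-type libraries and 3.47, 11.2, 3.49 and 4.29 CPM in the mutant libraries. Ms4a3 stood at 2.28, 7.09, 1.72 and 4.69 CPM in the wild-type libraries and 1.67, 6.30, 1.84 and 2.54 CPM in the mutant libraries. Both again had library 2 highest in each genotype. The log2 fold changes of Elane, Prtn3, Ctsg and Ms4a3 were -0.32, -0.51, -0.55 and -0.35, so all 5 estimates of the group were negative and 0 passed the test. Per kilobase of exon, Mpo averaged 22.1 CPM and Elane 19.5 CPM over the 8 libraries, Prtn3 9.18, Ctsg 6.70 and Ms4a3 1.87 CPM. Mpo shares 512 exonic bases with the antisense gene Gm11505, and Prtn3 shares 159 with Plppr3 on the opposite strand. Whether reads were counted by strand is not given in the sources used here, so reads in these stretches cannot be assigned.

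**Figure D3:**
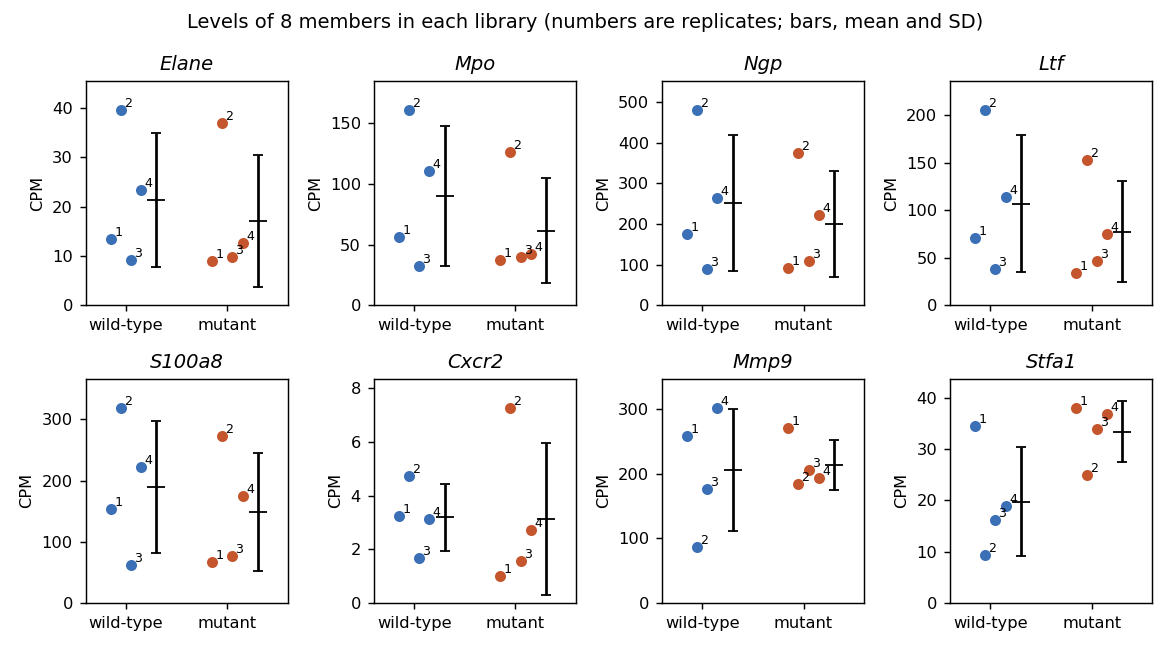
CPM (vertical axes, each from 0) of 8 members in the 4 wild-type (blue) and 4 mutant (orange) libraries, numbered by replicate, with mean and SD in black. Library 2 is the highest of its genotype for Elane, Mpo, Ngp, Ltf, S100a8 and Cxcr2 and the lowest of its genotype for Mmp9 and Stfa1.

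At the transition to later stages, Cebpe encodes C/EBPε, the factor needed for the step from promyelocyte to myelocyte, and Fcnb encodes ficolin B, a lectin of the complement system. Cebpe stood at 1.72, 4.25, 1.14 and 3.27 CPM in the wild-type libraries and 1.14, 3.22, 1.502 and 2.54 CPM in the mutant libraries. Wild-type library 4 took the second place that mutant library 2 held in most members, by a small margin. Fcnb stood at 4.69, 16.4, 3.28 and 6.99 CPM in the wild-type libraries and 3.12, 12.3, 3.49 and 5.56 CPM in the mutant libraries, with library 2 highest in each genotype. The log2 fold changes were -0.31 (SE 0.46) and -0.36 (SE 0.60), and neither passed the test.

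Ngp, which encodes neutrophilic granule protein, was the most abundant of the 10 secondary granule genes per length, at 185 CPM per kilobase, ahead of Camp (74.9), Ltf (26.7), Chil3 (23.9) and Lcn2 (21.5). The ranges of the last 3 over libraries overlap widely. Ngp stood at 175, 479, 90.0 and 264 CPM in wild-type libraries 1 to 4 and 92.0, 375, 109 and 221 CPM in mutant libraries 1 to 4. Ltf, the iron-binding lactoferrin, stood at 71.0, 205, 37.8 and 114 CPM in the wild-type libraries and 34.3, 153, 47.0 and 75.1 CPM in the mutant libraries. Camp, the precursor of the antimicrobial peptide cathelicidin, stood at 40.2, 101, 29.7 and 63.1 CPM in the wild-type libraries and 32.0, 94.3, 33.5 and 60.4 CPM in the mutant libraries. The high and the low libraries were those of the primary granule genes, except that mutant library 4 stood nearer to wild-type library 4 here. For Ngp the log2 fold change was -0.34 (SE 0.62, 95% interval -1.79 to 1.11), from means of 252 ± 167 and 199 ± 130.3 CPM (SD, n = 4 each).

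Lcn2, which binds bacterial siderophores, stood at 44.1, 115, 24.3 and 63.4 CPM in the wild-type libraries and 21.03, 102, 25.9 and 56.4 CPM in the mutant libraries. Chil3, a chitinase-like protein, stood at 28.0, 80.0, 12.5 and 48.4 CPM in the wild-type libraries and 14.8, 72.4, 16.3 and 40.3 CPM in the mutant libraries. In both the same 5 libraries stood on top, from wild-type library 2 to wild-type library 1. Cd177, a surface protein of specific granules, ranged from 4.37 to 27.9 CPM, and Itgb2l, an integrin subunit of the neutrophil line, from 1.54 to 11.0 CPM. Pglyrp1, a peptidoglycan recognition protein, ranged from 6.97 to 22.8 CPM. Mmp8, the neutrophil collagenase, stood at 10.9, 26.5, 8.17 and 14.99 CPM in the wild-type libraries and 3.73, 35.1, 7.12 and 11.1 CPM in the mutant libraries, and mutant library 2 was its highest and mutant library 1 its lowest of the 8. Olfm4, the granule protein olfactomedin 4, stood at 2.04, 2.89, 2.08 and 2.62 CPM in the wild-type libraries and 2.15, 5.01, 2.13 and 2.96 CPM in the mutant libraries, a narrow range apart from mutant library 2. Olfm4 shares 153 exonic bases with Gm6999 on the same strand. Of the 10 genes, 9 estimates were negative, 1 (Olfm4, 0.35, and 0.0034 without mutant library 2) was positive, 0 passed the test, and the median log2 fold change was -0.25.

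The tertiary granule gene Mmp9 (gelatinase B, chr2:164940780-164955850) did not follow the order of libraries of the granule genes above. It stood at 258, 86.8, 176 and 302 CPM in wild-type libraries 1 to 4 and 271, 185, 206 and 194 CPM in mutant libraries 1 to 4. Wild-type library 2, the highest of most members, was its lowest, and wild-type library 4 its highest. Mmp9 is also a defining product of osteoclasts, the cells that resorb bone. The osteoclast markers Ctsk and Acp5, named after their values were seen, had their highest 3 libraries and their lowest in common with Mmp9. These were wild-type 1, wild-type 4 and mutant 1 at the top and wild-type 2 at the bottom. Ctsk (cathepsin K) stood at 330.4, 102, 234 and 397 CPM in the wild-type libraries and 287, 215, 208 and 195 CPM in the mutant libraries. Acp5 (tartrate-resistant acid phosphatase) stood at 285, 109, 170.1 and 367 CPM in the wild-type libraries and 248, 180.3, 158 and 167 CPM in the mutant libraries. The 8 osteoclast markers, Mmp9 included, summed to 323 to 1132 CPM over the wild-type libraries and 592 to 851 CPM over the mutant ones, and none was at 0 in all libraries. Ctsk, Acp5 and Mmp9 made up most of that sum, at 397, 367 and 302 of 1132 CPM in wild-type library 4, so the sum is not a separate observation. The part of osteoclasts in the level of Mmp9 was not tested.

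Mmp25, a membrane-anchored metalloprotease of neutrophils, stood at 4.13, 5.20, 2.91 and 4.97 CPM in the wild-type libraries and 4.65, 6.58, 4.07 and 5.40 CPM in the mutant libraries, the smallest ratio of highest to lowest library among the members. The log2 fold changes were 0.054 (SE 0.34, 95% interval -0.73 to 0.84) for Mmp9 and 0.27 (SE 0.22, -0.24 to 0.77) for Mmp25. Neither passed the test of edgeR.

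Among genes of the mature cell, S100a9 and S100a8, the subunits of calprotectin, had the highest levels of the module per length, at 616 and 243 CPM per kilobase. S100a9 stood at 285, 603, 124 and 431 CPM in wild-type libraries 1 to 4 and 132, 519, 161 and 318 CPM in mutant libraries 1 to 4. S100a8 stood at 153, 319, 62.6 and 222 CPM in the wild-type libraries and 67.6, 273, 77.4 and 176 CPM in the mutant libraries. Both repeated the common order, from wild-type library 2 down to wild-type library 3. The CPM of S100a8 was a steady share of that of S100a9, between 48.0 and 55.3% over the 8 libraries. Between genotypes, S100a8 gave a log2 fold change of -0.35 (SE 0.61) and S100a9 one of -0.35 (SE 0.58), and neither passed the test.

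Retnlg, a resistin-like protein of circulating neutrophils, stood at 16.6, 40.0, 8.43 and 22.2 CPM in the wild-type libraries and 6.41, 41.3, 7.41 and 14.0 CPM in the mutant libraries. Ly6g, a surface antigen of mouse neutrophils, stood at 1.07, 3.83, 0.884 and 2.71 CPM in the wild-type libraries and 0.395, 3.50, 1.07 and 1.69 CPM in the mutant libraries, and mutant library 1 was its lowest. Csf3r, the receptor for granulocyte colony-stimulating factor, stood at 7.11, 16.2, 4.63 and 8.14 CPM in the wild-type libraries and 3.29, 17.2, 5.23 and 5.88 CPM in the mutant libraries. Mutant library 2 was slightly above wild-type library 2 for Retnlg and Csf3r and slightly below it for Ly6g. Cxcr2, the receptor that releases mature neutrophils from marrow towards CXC chemokines, stood at 3.25, 4.73, 1.67 and 3.13 CPM in the wild-type libraries and 1.01, 7.27, 1.55 and 2.70 CPM in the mutant libraries. Its highest value was in mutant library 2 and its lowest in mutant library 1, a wider spread than among wild-type libraries. The log2 fold change of Cxcr2 was -0.027 (SE 0.60, 95% interval -1.39 to 1.34).

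Padi4, the deiminase that citrullinates histones, ranged from 1.62 to 7.98 CPM. Fpr1 and Fpr2, the formyl peptide receptors, ranged from 0.291 to 2.02 CPM and from 0.872 to 6.85 CPM. Fpr1 was the least abundant member per length (0.783 CPM per kilobase), with 6 to 44 counts per library in the mutant, so counting error adds to its spread. Fpr2 shares 48 exonic bases with Fpr3. Padi4, Fpr1 and Fpr2 gave log2 fold changes of -0.41, -0.26 and -0.017, and none passed the test.

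The stefin A genes Stfa1, Stfa2 and BC100530 encode small inhibitors of cysteine proteases and lie in one cluster on chromosome 16 (Stfa1 at chr16:36276951-36285373). They were the members with the lowest p-values and the largest positive estimates. Stfa1 stood at 34.4, 9.35, 16.2 and 18.8 CPM in wild-type libraries 1 to 4 and 38.0, 25.0, 33.8 and 36.7 CPM in mutant libraries 1 to 4. Stfa2 stood at 17.5, 4.31, 7.91 and 8.79 CPM in the wild-type libraries and 12.9, 16.3, 14.97 and 16.3 CPM in the mutant libraries. BC100530 stood at 43.3, 12.4, 21.6 and 23.2 CPM in the wild-type libraries and 41.6, 35.6, 37.0 and 46.0 CPM in the mutant libraries. For each gene wild-type libraries 2, 3 and 4 lay below the 4 mutant libraries, while wild-type library 1 lay among or above them. The log2 fold change of Stfa1 was 0.76 (SE 0.35, 95% interval -0.052 to 1.57), with an unadjusted p of 0.0631 and an adjusted p of 0.923 by edgeR. For Stfa2 and BC100530 it was 0.65 (SE 0.36) and 0.67 (SE 0.33), with edgeR adjusted p-values of 0.939 and 0.925. Without wild-type library 1 the estimates were 1.18, 1.12 and 1.08 in that order, and without wild-type library 2 they were 0.53, 0.41 and 0.44, with 0 calls either way.

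Stfa1 and BC100530 are not independent measurements. Of the 50-base words in its transcript, Stfa1 shared 26.9% with other stefin A genes of the cluster, BC100530 33.5% and Stfa2 14.7%. Stfa1 and BC100530 shared words with each other, whereas Stfa2 shared words only with Stfa2l1 and none with Stfa1 or BC100530. Reads in shared stretches can be split or lost in counting. BC100530 also shares 145 exonic bases with the antisense gene Gm15845. Unlike S100a8 and S100a9, the stefin genes had their lowest library in wild-type library 2. The stefin genes did not share one order of libraries. The highest was mutant library 1 for Stfa1, wild-type library 1 for Stfa2 and mutant library 4 for BC100530. The osteoclast sum was also lowest in wild-type library 2 (323 CPM) but highest in wild-type library 4 (1132 CPM), where Stfa1 was at 18.8 CPM. The part of other cells in the level of the stefin genes was not tested.

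Of the genes shared with other phagocytes, Cybb, Ncf1 and Ncf4 encode subunits of the NADPH oxidase, and Itgam encodes CD11b. Cybb stood at 29.2, 58.7, 18.4 and 40.5 CPM in the wild-type libraries and 19.3, 57.9, 20.9 and 29.2 CPM in the mutant libraries. Itgam stood at 19.4, 32.3, 13.9 and 25.0 CPM in the wild-type libraries and 14.6, 36.0, 19.0 and 18.4 CPM in the mutant libraries. Library 2 was again the highest of each genotype, over a smaller range. Highest over lowest was 3.19-fold for Cybb, 2.44-fold for Ncf1, 3.21-fold for Ncf4 and 2.58-fold for Itgam. The 4 genes together summed to 52.1 to 143 CPM over the wild-type libraries and 54.5 to 140 CPM over the mutant ones. The 10 macrophage markers, with C1qa, C1qb and Adgre1 among them, summed to 299 to 347 and 316 to 334 CPM, a narrower range. Monocyte markers summed to 464 to 567 and 527 to 795 CPM. The part of macrophages and monocytes in the levels of the 4 genes was not tested. The log2 fold changes of the 4 genes lay between -0.35 (Ncf4) and -0.044 (Itgam), all negative, with 0 past the test. Ncf1 shares 408 exonic bases with Gtf2ird2 on the opposite strand, and Itgam shares 3450 with Gm49368, which is not among the counted symbols.

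Precursor genes were then set against later genes within each library, so that the total amount of neutrophil RNA cancels. These shares compare libraries, not the abundance of one gene with another. The summed CPM of the 5 primary granule genes was 22.7, 23.6, 25.1 and 28.4% in wild-type libraries 1 to 4 and 27.9, 23.1, 24.7 and 14.7% in mutant libraries 1 to 4 of that of the 10 secondary granule genes. Of the sum of S100a8 and S100a9 it was 20.4, 27.4, 29.4 and 26.2% in wild-type libraries 1 to 4 and 29.7, 26.0, 26.6 and 14.6% in mutant libraries 1 to 4. In 7 libraries the first share lay between 22.7 and 28.4%, and mutant library 4 stood below them at 14.7%. The means were 24.9 ± 2.50% for the wild-type and 22.6 ± 5.63% for the mutant (SD, n = 4 per genotype), and the groups overlapped. Mpo was 32.1, 33.5, 35.5 and 41.8% in wild-type libraries 1 to 4 and 40.6, 33.7, 36.3 and 19.1% in mutant libraries 1 to 4 of the level of Ngp, and the share without Mpo and Ngp was again lowest in mutant library 4, at 11.1% against 15.2 to 18.2% elsewhere. Wild-type libraries 2 and 3 differed by 4.89-fold in secondary granule RNA and stood at 23.6 and 25.1%. Single genes gave other orders: Elane relative to Camp was 33.1, 39.1, 30.7 and 37.1% in wild-type libraries 1 to 4 and 28.0, 39.2, 29.3 and 20.9% in mutant libraries 1 to 4, higher in wild-type library 2 than in wild-type library 3 and lowest in mutant library 4.

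**Figure D4:**
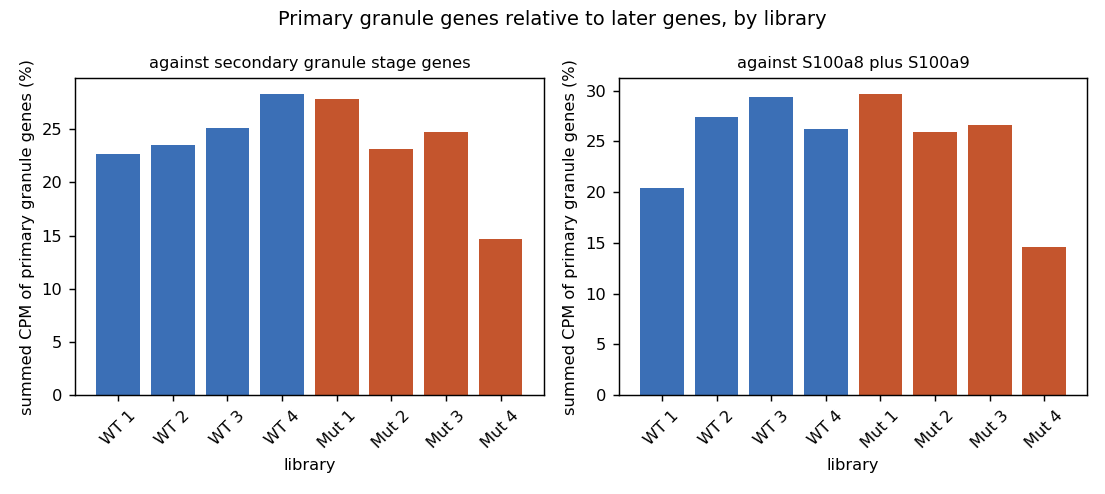
Summed CPM of the 5 primary granule genes as a percent of the 10 secondary granule genes (left) and of S100a8 plus S100a9 (right), one bar per library, wild-type in blue and mutant in orange. Mutant library 4 is lowest in both panels, at 14.7% and 14.6%, and the other mutant libraries lie within or next to the wild-type range.

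On the log2 scale, where each gene weighs the same, the mean log2 CPM of the 5 primary granule genes was 3.83 ± 0.93 for the wild-type and 3.38 ± 0.83 for the mutant (SD, n = 4 per genotype), a difference of -0.44. For the 24 secondary, tertiary and mature genes the difference was -0.13. Primary minus later was -0.53, 0.22, -0.38 and 0.042 in wild-type libraries 1 to 4 and -0.33, -0.26, -0.45 and -0.86 in mutant libraries 1 to 4. The genotypes overlapped, and the difference of the means, -0.31, was about the pooled SD of 0.31. It was -0.19 without mutant library 4 and -0.19 without wild-type library 2. It was -0.15 when Mmp9 and the 3 stefin genes were left out of the later genes after the data had been seen. Those genes departed from the common order of libraries. No p-value is given for these means, since the members were chosen with results known.

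Other genes of the pathway gave no call in the edgeR fit with genotype as the only term. Of 28 further neutrophil genes 27 were tested, 24 estimates were negative, 0 passed the test in either direction, and the median log2 fold change was -0.25, next to that of the members. The smallest p-values were those of Cd24a (-0.57, SE 0.24, edgeR adjusted p = 0.923), which other cells also express, and Anxa1 (-0.21, SE 0.094, 0.923). Of 15 regulators of granulopoiesis 14 were tested and 0 passed, with 6 negative and 8 positive estimates. Runx1 (-0.28, SE 0.12) and Irf8 (-0.65, SE 0.32) had the smallest p-values, with edgeR adjusted p = 0.923 and 0.925. Csf3, the cytokine that drives neutrophil output, had 4 counts in wild-type library 3, 1 in mutant library 1 and 0 elsewhere, too few to compare.

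Of 14 genes of recruitment and retention 10 were tested, 9 estimates were negative and 0 passed. At an unadjusted p under 0.05 edgeR had 4 of these 10, 1 of the 14 regulators and 1 of the 27 further neutrophil genes, beside 5.30% of all genes. Ccl3, a chemokine, stood at 0.836, 1.16, 0.780 and 0.552 CPM in the wild-type libraries and 0.439, 0.322, 0.145 and 0.424 CPM in the mutant libraries, which did not overlap, with a log2 fold change of -1.30 (SE 0.42) and an edgeR adjusted p of 0.907. Its counts were 3 to 22 per library. Icam1, the endothelial ligand of CD11b, followed with a log2 fold change of -0.49 (SE 0.19) and an edgeR adjusted p of 0.923. The neutrophil chemokines Cxcl1, Cxcl2 and Cxcl3 and the selectin gene Sele did not pass the filter on low counts. Cxcl1 and Cxcl2 had 36 and 45 counts in wild-type library 3, 1 of the libraries lowest in neutrophil genes, and at most 4 in any other library.

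Markers of other blood cells also varied between libraries, in an order only partly that of the members. The 13 erythroid genes summed to 17980, 50450, 13030 and 26220 CPM in wild-type libraries 1 to 4 and 17840, 19270, 7757 and 11120 CPM in mutant libraries 1 to 4. Mutant library 2, as high as wild-type library 2 in neutrophil genes (0.918 times its summed member level), held 0.382 times its erythroid level. The 8 cell division genes summed to 637, 963, 348 and 872 CPM in wild-type libraries 1 to 4 and 497, 448, 252 and 300.3 CPM in mutant libraries 1 to 4, and mutant library 2 held 0.466 times the level of wild-type library 2. The 12 B cell genes summed to 565, 734, 433 and 650.4 CPM in wild-type libraries 1 to 4 and 272, 579.7, 322 and 413 CPM in mutant libraries 1 to 4, and the 7 megakaryocyte and platelet genes to 74.2, 89.1, 34.3 and 111 CPM in wild-type libraries 1 to 4 and 49.6, 52.2, 30.2 and 33.1 CPM in mutant libraries 1 to 4. Erythroid over member RNA was 12.9, 19.4, 17.1 and 13.5 in wild-type and 19.5, 8.05, 8.23 and 7.58 in mutant libraries. Mutant library 1 thus stood next to the highest wild-type library and the other 3 mutant libraries below all wild-type ones. The member sum includes Mmp9, which was 271 of 913 CPM in mutant library 1 and 86.8 of 2607 CPM in wild-type library 2. That lowers the ratio more in mutant library 1, and a ratio without Mmp9 was not computed.

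Estimates were negative for 12 of 13 erythroid genes (median -1.08), 11 of 12 B cell genes (median -0.95), 7 of 7 megakaryocyte and platelet genes (median -1.06) and 8 of 8 cell division genes (median -0.85), each further from 0 than the median of the members, and 0 genes of these lists passed the test of edgeR after adjustment. At an unadjusted p under 0.05 edgeR had 8 of 8 cell division genes, 5 of 7 megakaryocyte and platelet genes, 4 of 12 B cell genes and 0 of 13 erythroid genes, beside 0 of 35 members and 5.30% of all genes. DESeq2 had 8, 6, 8 and 3 of them and limma-voom 7, 3, 7 and 1, with 0 after adjustment in both. Monocyte markers summed to 464 to 567 CPM over the wild-type libraries and 527 to 795 CPM over the mutant ones. Eosinophil markers, with Epx and Prg2 among them, summed to 12.7 to 27.3 and 8.999 to 36.6 CPM. The bone genes summed to 5140 to 8728 and 6561 to 11680 CPM, with wild-type library 2, the highest in neutrophil genes, at the bottom. The part of these cells in the levels of the members was not tested.

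**Figure D5:**
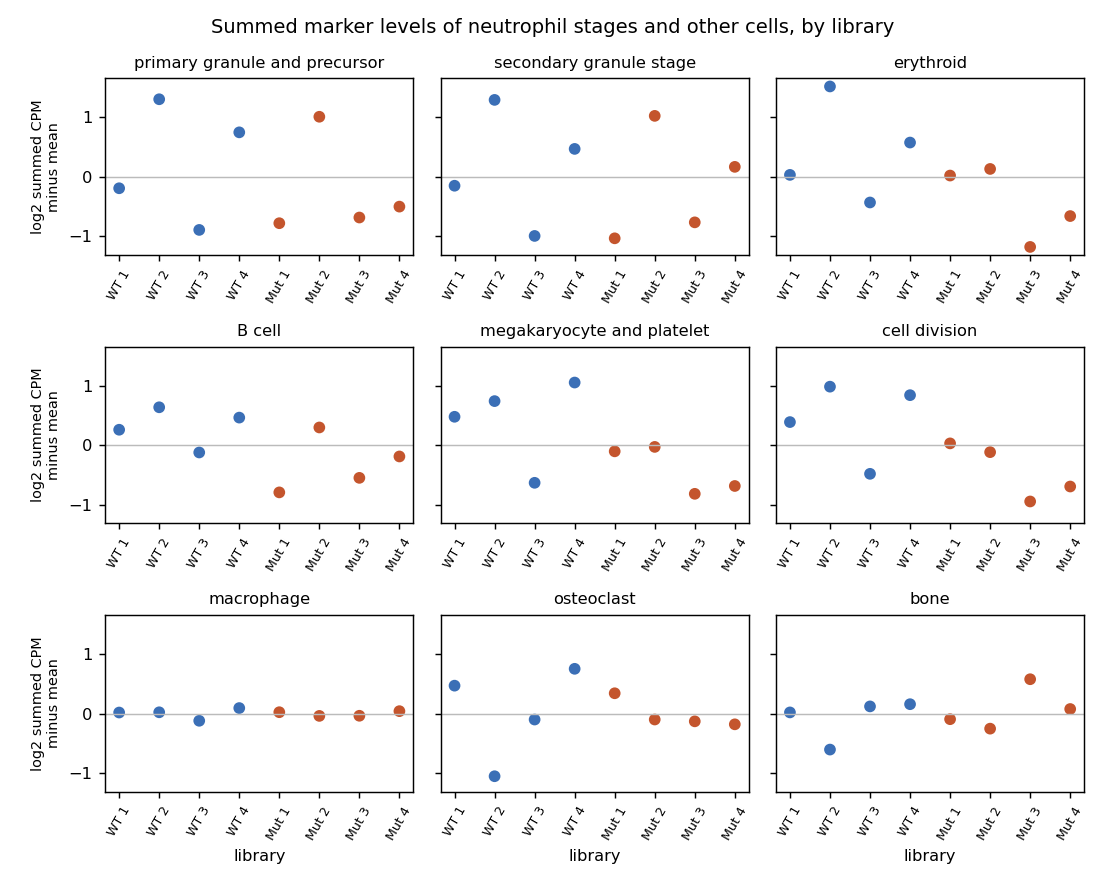
Log2 of the summed CPM of 9 marker lists in each library minus the mean of the list over the 8 libraries, wild-type in blue and mutant in orange, on one vertical scale. Mutant library 2 stands next to wild-type library 2 for primary and secondary granule genes and well below it for erythroid, megakaryocyte and cell division genes, while macrophage genes are nearly level.

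The titles of libraries 2 and 3 of each genotype hold 2 numbers and those of libraries 1 and 4 hold 1, and libraries of the same replicate number hold neighbouring numbers, with no meaning given. For title form 0 members passed the edgeR test (lowest adjusted p = 0.168), beside 9.39% of all genes. For the difference of the genotype effect between title forms 0 members passed (lowest unadjusted p = 0.0758, Stfa2), beside 0.0795% of all genes. The mean log2 level of the members differed by -0.53 between genotypes among libraries with 1 number and by 0.15 among those with 2. Among the 4 sets of neighbouring titles 11 of 35 members (31.4%) differed in an edgeR test added after the data had been seen, beside 4.68% of all genes. These were Elane, Prtn3, Ms4a3, Fcnb, Camp, Chil3, Cd177, Pglyrp1, Padi4, Fpr2 and Cybb, with adjusted p-values of 0.0157 to 0.0488 by edgeR. The sets are an assumed grouping, each with 1 library of each genotype, and what they share is not stated. Wild-type library 2 and mutant library 2, already seen to be the highest pair in 28 members, form 1 of the sets. The members also vary together, so the 11 calls are not independent of each other or of that order.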

How the data were processed

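Per the labels' protocols, RNA was taken up in TRIzol, cleaned on silica columns and sequenced from CORALL libraries, whose molecules bear unique identifiers. The submitters' processing notes list FastQC, STAR, HTSeq and mm10, and no versions. The gene annotation, strand option and any use of identifiers in counting were not given in the sources used here. The deposited values are raw counts per gene symbol, whole numbers with no normalization.

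Members and gene lists were chosen with earlier results of these data known. All 35 members were named, whatever their values, and from each other list at most the 2 genes with the smallest p. Ctsk, Acp5, Csf3, Cxcl1, Cxcl2, Cxcl3, Sele and Gda were named after their values were seen. Counts were tested with edgeR 4.0.16 in R 4.3.3 (quasi-likelihood, TMM, default filter, robust estimation, genotype only) and adjusted over 21392 genes. The fit was also run on simulated counts that gave every gene the same spread, the median over genes. That run does not measure what could be detected for the members, whose spread is mostly larger. CPM used normalized library sizes, and log2 CPM a prior count of 2. Gene positions and exon lengths came from GENCODE M21 (GRCm38). Replicates were numbered in accession order, and no 2 libraries agreed within sampling noise. The floor of 3 counts covers counting error only. Alternatives were 3 normalizations, 2 filters, DESeq2 1.42.0, limma-voom 3.58.1, no robust estimation, title form, neighbouring titles as a block, haemoglobin genes left out, and each library left out. Protein sequences were not used here.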

Additional observations from a re-analysis of the deposited data

Results flagged for a closer look

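In groups of 4 libraries, 90 were examined for a library standing apart from the other 3, judged by its gap to the nearest over the whole range (Dixon's test at its 95% critical value), and 5 were found. Chance alone gives about 1 in 20 groups. Mutant library 2 stood above the other mutant libraries in 4 primary granule genes, at 37.0 CPM for Elane, 126.1 CPM for Mpo, 25.1 CPM for Prtn3 and 11.2 CPM for Ctsg. These genes vary together, so the 4 findings are not independent, and wild-type library 2 was higher in each. Mutant library 1 stood above the other mutant libraries in the ratio of erythroid to member RNA, at 19.5-fold. Its members summed to 913 CPM, the lowest of the mutant libraries, of which Mmp9 was 271 CPM, and its erythroid genes to 17840 CPM.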

How the results depend on the processing

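The count of 0 members called was the same under every alternative run. Over the settings that kept all 8 libraries, 0 of 385 values of members had the other sign. With 1 library left out, 48 of 280 values had the other sign, in 25 members: 25 without wild-type library 2, 9 without mutant library 1, 8 without mutant library 3, 4 without mutant library 4 and 1 each without wild-type libraries 3 and 4. Without wild-type library 2 the median over members was 0.13, with 6 negative and 29 positive, and without mutant library 2 it was -0.84. With both libraries 2 left out it was -0.45, with 30 negative. The log2 fold changes of these 25 members with a library left out ranged as follows: Camp -0.48 to 0.31, Cd177 -1.22 to 0.11, Cebpe -0.59 to 0.036, Chil3 -0.83 to 0.28, Csf3r -0.91 to 0.25, Cxcr2 -0.87 to 0.27, Cybb -0.67 to 0.12, Elane -1.03 to 0.16, Fcnb -0.95 to 0.29, Fpr1 -0.96 to 0.070, Fpr2 -0.83 to 0.59, Itgam -0.39 to 0.18, Lcn2 -0.84 to 0.22, Ltf -1.04 to 0.057, Ly6g -1.02 to 0.092, Mmp8 -1.05 to 0.33, Mmp9 -0.20 to 0.30, Ms4a3 -0.97 to 0.092, Ncf1 -0.41 to 0.094, Ngp -0.84 to 0.17, Padi4 -0.93 to 0.057, Pglyrp1 -0.64 to 0.27, Retnlg -1.24 to 0.13, S100a8 -0.83 to 0.022, S100a9 -0.82 to 0.012. The other 10 members kept their sign: BC100530 0.44 to 1.08, Ctsg -1.13 to -0.19, Itgb2l -1.11 to -0.056, Mmp25 0.12 to 0.37, Mpo -1.18 to -0.11, Ncf4 -0.80 to -0.068, Olfm4 0.0034 to 0.49, Prtn3 -1.04 to -0.15, Stfa1 0.53 to 1.18, Stfa2 0.41 to 1.12. The mean log2 level over members differed by -0.53 to 0.053 with a library left out, that of primary granule genes by -0.85 to -0.10, that of later genes by -0.46 to 0.11, and primary minus later by -0.44 to -0.19.

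Over all genes, 1 was called higher and 8 lower. DESeq2 called 19 and 49. Limma-voom called 5 higher. Without robust estimation 5 were lower, and with title form 4. With a library left out 2 to 5 were higher and 4 to 9 lower, and with both libraries 2 left out, an alternative added after the data had been seen, 6 were higher.

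With neighbouring titles as a replicate block 17 genes were higher and 12 lower, and 0 members were called (lowest edgeR adjusted p = 0.212). Gda, 1 of the 28 further neutrophil genes, was then called lower (log2 fold change -1.39, edgeR adjusted p = 0.0243), against -1.32 and an adjusted p of 0.925 with genotype only. Deviations of same-numbered libraries correlated at 0.13, 0.25, 0.19 and -0.038 over genes, beside -0.15 to 0.15 for wild-type and mutant libraries of different numbers. The labels state no pairing, so the main fit did not pair the libraries. Whether the numbers mark pairs was not settled. With the block the SE of Mpo was 0.30, against 0.62 with genotype only. In the fit with genotype only, the replicate spread, with 4 libraries a group, limits what can be seen. An interval such as that of Mpo there, -2.01 to 0.90, leaves sizeable differences undetectable.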
